A study of Homo sapiens with 21 samples.

Results

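The genes described here are the 7 that set, copy and oxidise DNA methylation: DNMT1, DNMT3A and DNMT3B, UHRF1, and TET1, TET2 and TET3. They were found in the raw count table by Ensembl identifier, and all 7 were among the 42339 genes it lists and were tested in every comparison. RNA was sequenced in bulk from BT-549, an established BRCA1 wild-type triple-negative breast cancer (TNBC) cell line, with 3 cultures in each of 7 groups and 21 libraries in all. The 2D cells were monolayers in medium with serum, and the 3D control cells were mammospheres from serial passage 6 in MammoCult medium, so that the growth format and the medium cannot be told apart. The GO-203 group was the same passage of mammospheres with 0.75 umol/L GO-203, a peptide inhibitor of the MUC1-C cytoplasmic domain, and its controls were the 3D control cells, which the labels call control and the study's figure legends vehicle. The tet-MUC1shRNA mammospheres of passage 6 and the tet-MYCshRNA mammospheres of passage 8 carried an inducible shRNA in a puromycin-selected vector, and received 0.1% DMSO as vehicle or 500 ng/ml doxycycline (DOX). The passage of the tet-MYCshRNA cells is that of the sample titles, whereas the study's text speaks of passage 6 for this line in another assay. Each gene was silenced with 1 shRNA, and no DOX-treated control shRNA line is among these groups, so a change on DOX cannot be told apart from an effect of DOX itself. The passage and the shRNA line likewise cannot be told apart. RNA was measured here, not enzyme or methylated DNA.

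DNA methylation in mammals sits mainly on cytosines of CpG dinucleotides. DNMT3A and DNMT3B place it on unmethylated DNA, and DNMT1 copies it to the new strand after replication, where UHRF1 recognises hemimethylated sites and brings DNMT1 to them. The TET enzymes oxidise 5-methylcytosine to 5-hydroxymethylcytosine and further forms, which are lost on replication or removed by base excision repair.

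Library totals ran from 38026597 to 99751717 counts. The 5 mesenchymal markers that BT-549 is known for summed to between 6206 and 16042 CPM, counts scaled to a common library size, in a library, against 0.376 to 6.41 CPM for 7 luminal epithelial markers, 0.0507 to 1.75 CPM for 5 immune markers and 0.0443 to 11.3 CPM for 4 endothelial markers, and the 3 receptor genes whose low level defines TNBC summed to between 18.7 and 43.5 CPM. The CPM scale uses TMM factors over all 21 libraries. Each log2 fold change comes from the fit of that comparison's own 6 libraries with edgeR's quasi-likelihood test, its adjusted p is Benjamini-Hochberg over all genes tested there, and a gene was called at an adjusted p below 0.1. The cultures were run in triplicate, and p-values measure the spread between them, which may in part be technical.

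On GRCh38, in the GENCODE release 44 annotation, DNMT1 (ENSG00000130816) lies on the minus strand of chromosome 19 at 10133342-10231286 and UHRF1 (ENSG00000276043) on the plus strand of the same chromosome at 4903080-4962154. DNMT3A (ENSG00000119772) lies on the minus strand of chromosome 2 at 25227855-25342590, and DNMT3B (ENSG00000088305) on the plus strand of chromosome 20 at 32762385-32809359. TET1 (ENSG00000138336) spans chr10:68560337-68694487, TET2 (ENSG00000168769) chr4:105145875-105279816 and TET3 (ENSG00000187605) chr2:73984910-74108176, all on the plus strand. Exons of other genes on the same strand cover 0.54% of the exonic length of DNMT1 and 3.01% of that of TET3. DNMT3A and TET1 each have 1 annotated pseudogene named after them, so some of their reads could be split with it.

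The promoters of these genes were read for the sites of factors the design bears on. RefSeq on GRCh38.p14 gives 18 windows of 300 bases for the 7 genes, from 250 bases before to 50 bases after a transcription start. The window of UHRF1 and that of TET3 shown here hold the E2F-type and E-box matches of genes that fell on MYC silencing, the DNMT1 window is that of UHRF1's partner, and the TET2 window holds an E-box in a gene that rose. Capitals mark CACGTG, the E-box that MYC-MAX dimers can bind and that reads the same on both strands, and TTTCCCGC or its reverse complement, an E2F-type site. Each sequence runs 5′ to 3′ on the strand of its gene.
UHRF1, chr19:4909251-4909550, plus strand: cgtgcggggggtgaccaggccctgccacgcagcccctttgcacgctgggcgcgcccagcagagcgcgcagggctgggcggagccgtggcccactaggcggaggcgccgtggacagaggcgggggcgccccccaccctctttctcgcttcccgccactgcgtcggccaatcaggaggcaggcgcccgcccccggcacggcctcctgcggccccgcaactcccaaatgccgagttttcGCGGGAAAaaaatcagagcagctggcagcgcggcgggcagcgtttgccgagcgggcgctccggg
DNMT1, chr19:10194904-10195203, minus strand: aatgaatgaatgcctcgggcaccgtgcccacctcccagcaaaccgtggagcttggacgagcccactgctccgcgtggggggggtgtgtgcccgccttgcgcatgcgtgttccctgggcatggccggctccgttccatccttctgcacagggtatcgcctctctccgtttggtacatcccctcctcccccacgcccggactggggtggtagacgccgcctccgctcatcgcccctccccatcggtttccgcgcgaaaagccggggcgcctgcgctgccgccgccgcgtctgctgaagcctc
TET3, chr2:73984660-73984959, plus strand: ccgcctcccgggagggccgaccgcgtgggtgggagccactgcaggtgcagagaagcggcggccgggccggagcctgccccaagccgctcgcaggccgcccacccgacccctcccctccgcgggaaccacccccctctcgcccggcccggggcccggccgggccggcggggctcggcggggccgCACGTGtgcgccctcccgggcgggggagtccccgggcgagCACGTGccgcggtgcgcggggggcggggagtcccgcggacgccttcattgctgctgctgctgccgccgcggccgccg
TET2, chr4:105145625-105145924, plus strand: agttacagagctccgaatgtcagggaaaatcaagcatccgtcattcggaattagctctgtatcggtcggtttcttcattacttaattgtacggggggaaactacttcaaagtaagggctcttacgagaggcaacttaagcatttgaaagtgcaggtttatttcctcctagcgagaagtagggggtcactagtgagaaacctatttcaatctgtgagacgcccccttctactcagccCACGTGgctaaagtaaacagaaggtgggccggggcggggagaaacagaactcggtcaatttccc

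CACGTG began 67 and 27 bases before the TET3 start and 14 bases before the TET2 start, and stood in 4 of the 18 windows. The other 2 of those are overlapping windows of DNMT3A that share the same match, 75 bases before the start at chr2:25252266-25252565. Of all 35116 RefSeq promoter windows of this length, 7.26% hold CACGTG. The E-box was therefore in windows of TET3, which fell on MYC silencing, and of TET2 and DNMT3A, which rose. TTTCCCGC matched on the reverse strand in 1 UHRF1 window, beginning 14 bases before the start, and is in 1.63% of all windows. The related TTTGGCGC matched none of the 18 windows and 0.652% of all windows. The hypoxia response cores ACGTG, which lies inside CACGTG, and GCGTG, searched on both strands, were in 5 and 6 of the 18 windows and in 21.4% and 36.5% of all windows. The UHRF1 windows held 36 to 46 CpG dinucleotides, the DNMT1 window 30, and the DNMT3B window 3, against a median of 14 over all windows. Windows of DNMT3A held 18 to 46, of TET3 33 to 45, of TET2 13 to 35 and of TET1 6 to 11, so the count did not follow the kind of enzyme. These matches describe the sequence only.

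Per kilobase of exon, UHRF1 and DNMT1 had the highest levels in 2D and in 3D cells. In 2D cells UHRF1 was at 17.3 CPM per kb and DNMT1 at 11.1, whereas TET2 was at 7.43, TET1 at 3.74, DNMT3A at 3.00, TET3 at 2.99 and DNMT3B at 1.62. In 3D cells UHRF1 reached 31.8 and DNMT1 14.2 CPM per kb, while TET2 was at 3.30, TET3 at 2.22, TET1 at 0.754, DNMT3A at 0.675 and DNMT3B at 0.100. Exon lengths were those of all annotated isoforms merged, so genes with many unused exons read low on this scale. Over the 7 groups the highest mean CPM was 23.7 times the lowest for DNMT3B, 14.6 times for TET1 and 13.0 times for DNMT3A, against 2.96 for TET2, 2.72 for TET3, 2.44 for UHRF1 and 2.43 for DNMT1. The plot of levels in every library shows this contrast between genes with a wide and a narrow range. The wide ranges rest largely on the 2D group. DNMT3B had a mean of 11.2 CPM there against 0.471 to 1.19 CPM in the mammosphere groups. TET1 was at 35.9 against 2.46 to 8.16 CPM, and DNMT3A at 41.4 against 3.18 to 12.3 CPM.

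**Figure D1:**
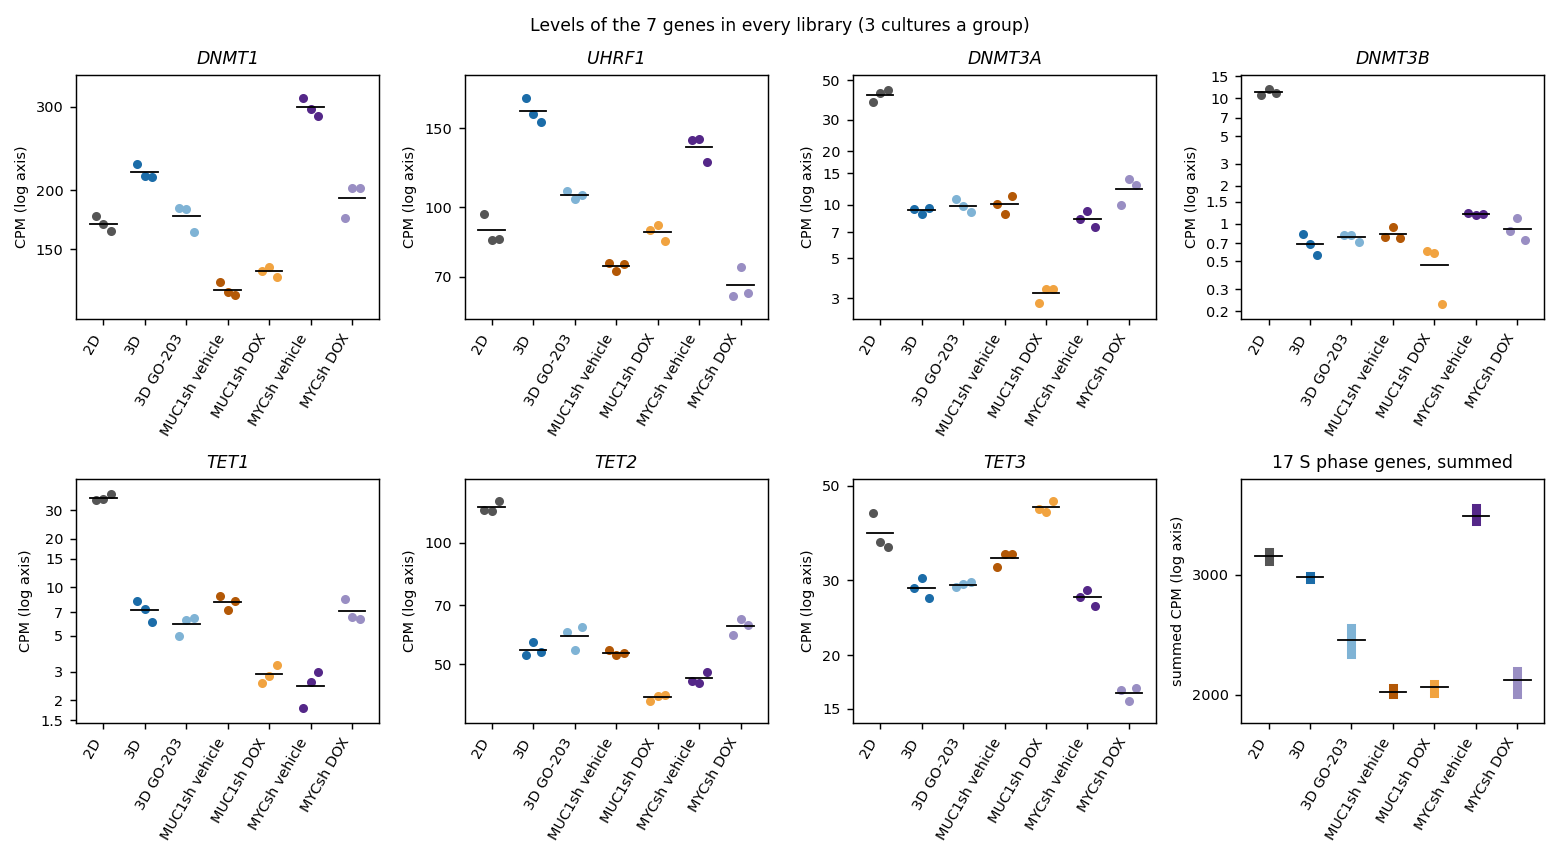
CPM of each gene in every library on log axes, 1 point a culture and a black line at the mean of 3, with groups along the horizontal axis; the last panel gives the range (bar) and mean (line) of the summed CPM of 17 S phase genes. DNMT3A, DNMT3B, TET1 and TET2 were highest in the 3 2D libraries, while DNMT1 was highest in the tet-MYCshRNA vehicle libraries, at a mean of 299 CPM.

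The first comparison asked how the enzymes differ between 3D cells, the stem cell-enriched state, and 2D cells. The genes that place new methylation and those that oxidise it were lower in 3D cells, and the pair that copies methylation was higher. DNMT3B was 16.4-fold lower, TET1 5.00-fold, DNMT3A 4.46-fold, TET2 2.26-fold and TET3 1.35-fold lower, while UHRF1 was 1.84-fold and DNMT1 1.28-fold higher. All 7 genes passed the test, 2 higher and 5 lower. Of the 19190 genes tested, 32% were higher and 31.7% lower at this threshold, and for 64.2% the libraries of the groups did not overlap in CPM, so neither a call nor a lack of overlap set these genes apart. Of the 7 genes, 3 also passed an absolute log2 fold change of 1.5, which 16.2% of all genes did. The median log2 fold change of the 7 was -1.18, and that of all genes -0.01.

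DNMT1, the maintenance methyltransferase, was at 177, 170 and 164 CPM in the 2D libraries and at 227, 214 and 214 CPM in the 3D libraries. The groups did not overlap, and the 3D cultures were the higher, with a log2 fold change of 0.36 ± 0.056 (SE) and an adjusted p of 3.68e-05 in edgeR. UHRF1, which recruits DNMT1, was at 96.6, 84.6 and 85.1 CPM in 2D cells and at 176, 161 and 155 CPM in 3D cells. Every 3D library was above every 2D library, and the log2 fold change was 0.88 ± 0.068 (edgeR adjusted p = 1.17e-08). The 17 S phase genes (replication and cell cycle genes such as PCNA and the MCM helicase subunits) did not move as a block beside this pair. Of these, 8 were higher and 4 lower in 3D cells, with a median log2 fold change of 0.10, and their summed level was 3136 to 3235 CPM in 2D and 2956 to 2986 CPM in 3D libraries. That sum leans on MKI67 and TOP2A, which are among the 4 lower genes. Their means were 778 and 736 CPM in 2D and 534 and 479 CPM in 3D cells, so the lower sum does not stand for the rest of the list. CDT1, a replication licensing factor, was the highest of the list at 0.77 ± 0.097, and CCNE2, cyclin E2, the lowest at -0.72 ± 0.070. In bulk RNA, a change in the number of cycling cells and a change in the RNA of each cell cannot be told apart.

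DNMT3A was at 37.9, 42.4 and 43.8 CPM in the 2D libraries and at 9.42, 8.86 and 9.62 CPM in the 3D libraries. The gap between the groups was several times the spread within either, with a log2 fold change of -2.16 ± 0.081 (edgeR adjusted p = 9.89e-13). DNMT3B, the other de novo enzyme, was at 10.7, 11.9 and 11.0 CPM in 2D and at 0.830, 0.683 and 0.558 CPM in 3D libraries. The 3D libraries held 40, 35 and 36 counts of it, which is low but above the floor of detection, and the log2 fold change was -4.04 ± 0.17 (edgeR adjusted p = 3.51e-12). Among all genes tested, 4.20% had a larger absolute change than DNMT3B.

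TET1 was at 35.0, 35.1 and 37.7 CPM in 2D cells and at 8.28, 7.38 and 6.09 CPM in 3D cells. No library of one group reached the other, and the log2 fold change was -2.32 ± 0.10 (edgeR adjusted p = 7.87e-12). TET2 was at 120, 120 and 127 CPM in 2D and at 52.6, 56.7 and 53.6 CPM in 3D libraries, a log2 fold change of -1.18 ± 0.060 (edgeR adjusted p = 5.22e-11). TET3 was at 43.2, 37.0 and 35.9 CPM and at 28.8, 30.3 and 27.2 CPM. Its groups did not overlap either, and its log2 fold change was -0.43 ± 0.079 (edgeR adjusted p = 1.89e-04).

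**Figure D2:**
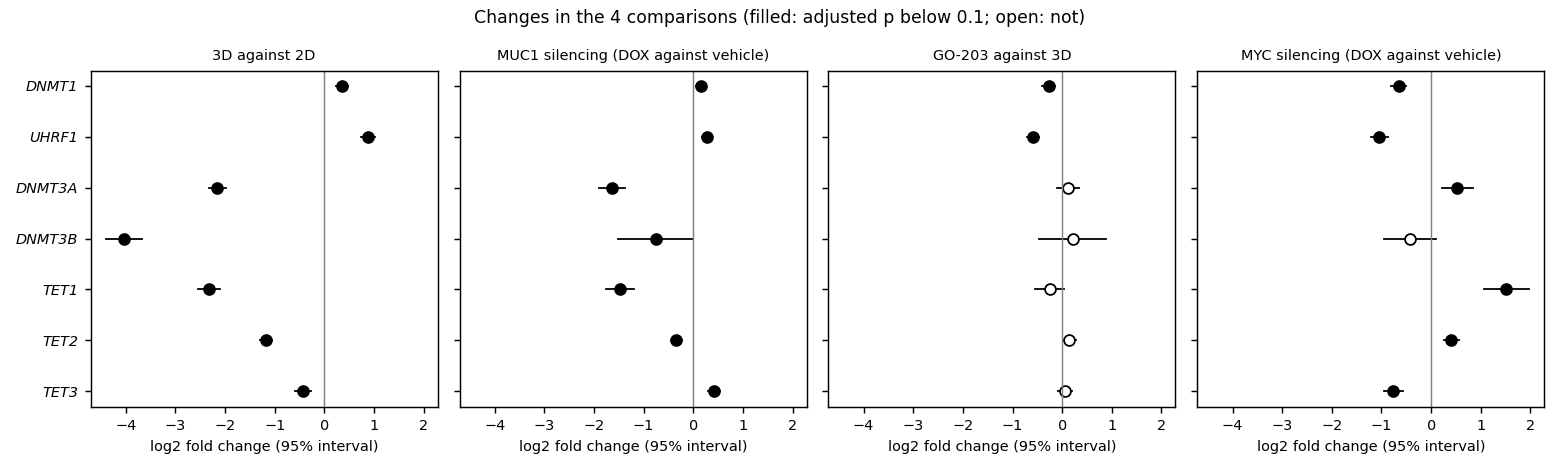
Log2 fold change of each gene (horizontal axis, point) with its 95% interval (line) in the 4 comparisons, filled where the edgeR adjusted p was below 0.1. DNMT3A, TET1 and TET2 lie left of 0 in 3D against 2D cells and on MUC1 silencing, and right of 0 on MYC silencing, whereas on GO-203 only DNMT1 and UHRF1 are filled.

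The lower de novo and TET levels changed the makeup of both families. Of the summed CPM per kb of the 3 methyltransferases, DNMT1 made up 70.5% ± 1.97 (SD, n = 3) in 2D cells and 94.8% ± 0.125 in 3D cells, DNMT3A 19.1% ± 1.60 and 4.51% ± 0.215, and DNMT3B 10.4% ± 0.536 and 0.668% ± 0.111. The summed level was 15.7 ± 0.223 CPM per kb in 2D and 15.0 ± 0.532 in 3D cells, so that the methyltransferase total was similar and its composition was not. The TET total was 14.2 ± 0.324 CPM per kb in 2D and 6.27 ± 0.278 in 3D cells. TET2 made up 52.5% ± 1.20 of it in 2D and 52.6% ± 1.75 in 3D cells, while TET1 went from 26.4% ± 0.880 to 12% ± 1.59 and TET3 from 21.1% ± 2.07 to 35.4% ± 0.320. These shares rest on the same counts as the tests and were not tested again.

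**Figure D3:**
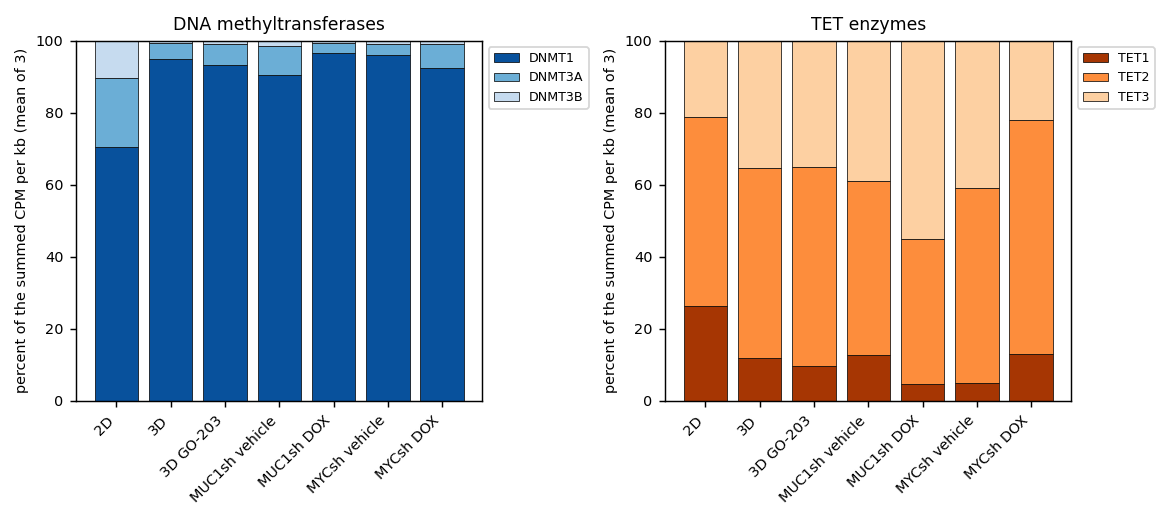
Percent that each gene contributed to the summed CPM per kb of its family (vertical axis, mean of 3 libraries) in the 7 groups, for DNA methyltransferases at left and TET enzymes at right. DNMT1 filled 70.5% of its bar in 2D cells and between 90.4% and 96.7% in the 6 mammosphere groups, and TET3 ranged from 21.1% in 2D to 55.0% in tet-MUC1shRNA DOX cells.

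Genes that work with these enzymes moved in both directions between 3D and 2D cells. Of 8 tested DNMT and UHRF1 partners, 3 were higher and 3 lower: UHRF2, the UHRF1 paralog, was at 148 to 156 CPM in 3D against 89.6 to 94.0 in 2D libraries (log2 fold change 0.71), and DMAP1, a DNMT1-associated protein, at 12.8 to 15.1 against 18.4 to 19.6 (-0.41). Of 14 genes that remove oxidised bases or regulate the TET enzymes, 6 were higher and 5 lower. GADD45A, a stress gene linked to active demethylation, rose from between 5.86 and 7.10 CPM to between 44.8 and 47.0 (2.85 ± 0.084), and CXXC5, a CXXC zinc finger protein, fell from between 6.71 and 8.17 to between 0.249 and 0.781 (-3.77 ± 0.25). In the same list IDH1 and IDH2, which make the 2-oxoglutarate that TET enzymes consume, had log2 fold changes of -0.86 and -1.47, and both passed the test; they were singled out after their values were seen. Of 7 methyl-CpG readers, 4 were higher and 2 lower, led by ZBTB38 (1.29) and ZBTB4 (-0.64). Of 9 genes of methyl donor supply, 6 were higher and 2 lower, with methionine synthase MTR at 0.85 and the methionine adenosyltransferase subunit MAT2B at -0.31 the largest rise and fall at a mean CPM of at least 1. The other gene that was lower, BHMT2, a betaine-homocysteine methyltransferase paralog, had a larger fall (-2.25) at means of 0.448 CPM in 2D and 0.0880 CPM in 3D cells. Marker genes of other cell types also moved with growth format: the 4 endothelial markers summed to between 0.0443 and 0.205 CPM in 2D and between 5.95 and 7.28 CPM in 3D libraries, where 1 of the 4 was above 1 CPM, and the 7 luminal markers to between 5.66 and 6.41 CPM in 2D and 1.29 and 1.61 CPM in 3D. Of the 4 luminal markers tested, KRT8 (1.51) and GATA3 (2.12) were higher in 3D cells, and CDH1, with 0 counts in each 3D library, and FOXA1 (-3.74) were lower. GATA3, at a mean of 0.0611 CPM in 2D cells, and CDH1 each passed the low-count filter through 1 group alone. The 5 immune markers summed to between 1.09 and 1.75 CPM in 2D and between 0.125 and 0.170 CPM in 3D. PTPRC, the 1 tested, was at means of 1.25 CPM in 2D and 0.0632 CPM in 3D cells. It passed the low-count filter through the 2D group alone, so its test carries no weight. Of the 5 mesenchymal markers 3 were higher in 3D cells, among them FN1 (3.89), and 2 were lower, CDH2 (-3.11) and SPARC (-3.97). ERBB2, the 1 receptor gene tested, was also lower (-0.63). Their part in the values above was not tested.

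The second comparison asked what changed when MUC1 was silenced in 3D cells. MUC1 itself was at 101, 83.1 and 86.6 CPM in the tet-MUC1shRNA vehicle libraries and at 19.7, 21.2 and 23.3 CPM in the DOX libraries, as the labels have it. DNMT3A and TET1 were 3.12-fold and 2.78-fold lower on DOX, TET2 was lower, TET3 was higher, and DNMT1 and UHRF1 were slightly higher. All 7 genes passed the test, 3 higher and 4 lower, where 30.7% of the 19220 genes tested were higher and 31.6% lower and 62.4% had groups that did not overlap. DNMT3A alone also passed the absolute log2 fold change of 1.5, as did 8.82% of all genes, but not with scaling by total counts (-1.48). TET1, at -1.48, fell short of it and passed with all 21 libraries in one fit (-1.50), without vehicle replicate 2 (-1.56) and without DOX replicate 3 (-1.58). The median log2 fold change of the 7 was -0.34, and that of all genes 0.02.

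DNMT3A was at 10.2, 8.91 and 11.2 CPM with vehicle and at 2.81, 3.36 and 3.38 CPM with DOX. The highest DOX library was far below the lowest vehicle library, and DNMT3A was 3.12-fold lower, a log2 fold change of -1.64 ± 0.12 (edgeR adjusted p = 4.02e-10). TET1 was at 8.90, 7.29 and 8.28 CPM with vehicle and at 2.55, 2.83 and 3.31 CPM with DOX, and was 2.78-fold lower. The groups were again apart, with a log2 fold change of -1.48 ± 0.13 (edgeR adjusted p = 7.10e-09). TET2 was at 54.1, 52.6 and 53.1 CPM and at 40.4, 41.7 and 41.9 CPM, a log2 fold change of -0.34 ± 0.052 (edgeR adjusted p = 9.24e-06).

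TET3 went the other way, from 32.3, 34.6 and 34.6 CPM with vehicle to 44.1, 43.5 and 46.0 CPM with DOX. Each DOX library exceeded each vehicle library, and the log2 fold change was 0.42 ± 0.058 (edgeR adjusted p = 2.97e-06). TET3 thereby made up 55.0% ± 0.659 (SD, n = 3) of the TET total per kb on DOX against 39.1% ± 1.64 with vehicle, and TET1 4.81% ± 0.515 against 12.7% ± 1.19. The TET total per kb was 6.25 ± 0.167 and 6.70 ± 0.0660 CPM.

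DNMT1 was at 128, 122 and 120 CPM with vehicle and at 135, 138 and 131 CPM with DOX, and UHRF1 at 75.2, 72.0 and 74.7 and at 89.1, 91.3 and 84.2 CPM. Neither gene overlapped between groups, but both changes were small, with log2 fold changes of 0.15 ± 0.044 for DNMT1 (edgeR adjusted p = 0.00556) and 0.28 ± 0.047 for UHRF1 (edgeR adjusted p = 3.70e-05). Scaling by total counts alone put the all-gene median log2 fold change on MUC1 silencing at 0.19 in place of 0.02 and the share of called genes that were higher at 64.4% in place of 49.3%, and moved the log2 fold changes of DNMT1, UHRF1 and TET2 to 0.32, 0.44 and -0.18, all still called. Of the 17 S phase genes 9 were higher and 4 lower on DOX, with a median log2 fold change of 0.14, and their summed level was 2005 to 2043 CPM with vehicle and 2014 to 2072 CPM with DOX. Its part in the DNMT1 and UHRF1 values was not tested.

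DNMT3B was at 0.783, 0.941 and 0.767 CPM with vehicle and at 0.602, 0.585 and 0.227 CPM with DOX, where the libraries held 34, 42 and 10 counts. The groups did not overlap, and the log2 fold change of -0.76 ± 0.36 just passed (edgeR adjusted p = 0.0810). The call was not stable. It was lost in DESeq2 (adjusted p = 0.103) and with scaling by total counts (edgeR adjusted p = 0.163), and without vehicle replicate 1, 2 or 3 (edgeR adjusted p of 0.103, 0.193 and 0.111). Without DOX replicate 3 the log2 fold change was -0.46 (edgeR adjusted p = 0.252).

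Among the other genes of the pathway, falls outnumbered rises on MUC1 silencing for the genes of oxidised base removal and TET regulation, with 3 higher and 8 lower of 14. GADD45A fell from between 77.3 and 99.0 CPM to between 32.1 and 38.4 (log2 fold change -1.27 ± 0.075), and SMUG1, a uracil and 5-hydroxymethyluracil glycosylase, rose from between 10.0 and 11.1 to between 16.6 and 16.8 (0.69 ± 0.080). Of the 8 partners 2 were higher and 1 lower, that being CDCA7, a cofactor of the chromatin remodeler HELLS, at 55.3 to 59.6 against 87.4 to 94.7 CPM (-0.65 ± 0.050). Readers counted 2 higher and 4 lower of 7, with ZBTB38 at 0.52 and MBD3, a NuRD subunit listed here by its domain family, at -0.73. Methyl donor genes counted 3 higher and 5 lower of 9, with AHCYL2 at 0.78 and AHCY, which clears the methylation product S-adenosylhomocysteine, at -0.64. The 7 luminal epithelial markers summed to between 0.376 and 0.492 CPM with vehicle and between 3.40 and 3.93 CPM with DOX, which moves with the group. Of these, 5 could be tested and were higher. KRT8, KRT18, CDH1 and GATA3 had means of 0.0305 to 0.0610 CPM with vehicle. They passed the low-count filter through the DOX group alone, so the number of higher markers carries no weight. FOXA1 was at means of 0.275 and 0.523 CPM. The mesenchymal markers summed to between 11748 and 12812 CPM with vehicle and 8576 and 8934 CPM with DOX, but they did not move together. FN1, most of that sum, was at a mean of 10326 CPM with vehicle and 7154 CPM with DOX (-0.51), and ZEB1 (-1.41) and SPARC (-0.90) were also lower, while CDH2 (2.67) and VIM (0.18) were higher. The endothelial markers summed to between 4.19 and 4.42 CPM with vehicle and 4.01 and 4.49 CPM with DOX, and of the 2 tested KDR was higher (2.66, edgeR adjusted p = 2.28e-06) and PECAM1 lower (-0.43, edgeR adjusted p = 0.0209). Of the TNBC receptor genes ERBB2 was lower (-0.25). The part of any of these shifts in the values above was not tested.

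The third comparison set 3D cells treated with GO-203 against the control 3D cells, which are also the 3D libraries of the first comparison. The GO-203 libraries lacked a value for 7587 genes, and the 3D and 2D libraries for 6498 genes. Missing values were read as 0, so the groups of this comparison differ in which genes were filled. In each other comparison both groups lacked values for the same genes. All 7 genes had counts in every library. Only the maintenance pair passed the test, UHRF1 and DNMT1 both being lower, and the de novo and TET genes did not. Of the 7 genes 2 were called, both lower, and these were also the 2 whose groups did not overlap, which 33.1% of all genes tested did not. The background of calls was 11.1% higher and 12.9% lower of 18488 genes tested, and 0.757% past the absolute log2 fold change of 1.5, which none of the 7 genes reached. The median log2 fold change of the 7 was 0.06, and that of all genes 0.02.

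UHRF1 was at 176, 161 and 155 CPM in 3D cells and at 109, 104 and 107 CPM with GO-203. The treated libraries sat close together and well below the controls, and UHRF1 was 1.51-fold lower, with a log2 fold change of -0.59 ± 0.061 (edgeR adjusted p = 3.21e-07). DNMT1 was at 227, 214 and 214 CPM and at 184, 183 and 163 CPM with GO-203, a log2 fold change of -0.28 ± 0.063 (edgeR adjusted p = 0.00340). S phase genes moved the same way, since 12 of the 17 were lower and none was higher, with a median log2 fold change of -0.28. CDT1 fell the most, from between 41.3 and 49.9 CPM to between 26.1 and 28.0 (-0.69 ± 0.074), and the summed level went from between 2956 and 2986 CPM to between 2294 and 2504. The part of this shift in the UHRF1 and DNMT1 values was not tested.

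The de novo and TET genes kept overlapping levels. DNMT3A was at 10.7, 9.84 and 9.17 CPM with GO-203, and the 95% interval of its log2 fold change ran from -0.10 to 0.34. DNMT3B was at 0.814, 0.812 and 0.713 CPM, with an interval from -0.46 to 0.88 that leaves changes of that size unresolved. TET1 was at 5.02, 6.26 and 6.50 CPM, with an interval from -0.55 to 0.04, and without 3D control replicate 3 its log2 fold change of -0.38 was called (edgeR adjusted p = 0.0684).

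TET2 was at 60.1, 54.2 and 61.9 CPM, with an interval from 0.02 to 0.27, and lay at the threshold (edgeR adjusted p = 0.103). It was called, at a log2 fold change between 0.15 and 0.18, with the replicate number as a block (edgeR adjusted p = 0.0862), with scaling by total counts (0.0735), with at least 10 counts in every library (0.0592), without 3D control replicate 2 (0.0639) and without GO-203 replicate 2 (0.0625). TET3 was at 28.9, 29.3 and 29.7 CPM, with an interval from -0.08 to 0.20. Among the surrounding genes, 1 partner was higher and 4 were lower of 8, led by TRDMT1, a tRNA methyltransferase of the DNMT family, at -0.41 ± 0.11, and ZBTB24 at 0.16. Of the 14 genes of oxidised base removal and TET regulation 1 was higher (IDH2, 0.39) and 2 lower (XRCC1, -0.24, the larger fall). Readers counted 1 higher (ZBTB4, 0.17, with overlapping libraries) and 2 lower of 7 (ZBTB38, -0.27), and methyl donor genes 1 higher and 1 lower of 8 (AHCY, -0.31). Of the cell type and receptor markers tested on GO-203, SPARC alone was called, as higher (0.69), and its part in the values above was not tested.

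The fourth comparison asked what changed when MYC was silenced in 3D cells. MYC was at 439, 418 and 386 CPM with vehicle and at 244, 279 and 297 CPM with DOX in the tet-MYCshRNA libraries, a log2 fold change of -0.62. UHRF1, DNMT1 and TET3 were lower on DOX, and TET1, DNMT3A and TET2 were higher. Of the 7 genes 6 were called, 3 higher and 3 lower, against a background of 30.3% higher and 28.1% lower of 19951 genes. The libraries of all 7 genes were apart between groups, including those of DNMT3B, which was not called, and so were those of 59.5% of all genes tested. TET1 alone also passed the absolute log2 fold change of 1.5, at 1.52, as did 10.5% of all genes. It no longer passed with scaling by total counts (1.49), with no filter on low counts (1.48), without vehicle replicate 1 (1.32) and without DOX replicate 1 (1.37). The library of DOX replicate 1 stood furthest from its group, since the chi-square over all genes, divided by its degrees of freedom, was 45.6 and 31.5 against the other DOX replicates, where every other replicate pair of the 7 groups was between 4.13 and 18.55. Without it the same 6 genes were called, with log2 fold changes of -1.01 for UHRF1, -0.59 for DNMT1, -0.78 for TET3, 1.37 for TET1, 0.65 for DNMT3A and 0.44 for TET2. The median log2 fold change of the 7 was -0.42, and that of all genes 0.01.

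UHRF1 was at 141, 142 and 126 CPM with vehicle and at 63.5, 73.7 and 64.4 CPM with DOX. No DOX library came near a vehicle library, and UHRF1 was 2.06-fold lower, with a log2 fold change of -1.04 ± 0.080 (edgeR adjusted p = 2.22e-06). DNMT1 was at 313, 297 and 288 CPM and at 175, 202 and 202 CPM, a log2 fold change of -0.65 ± 0.070 (edgeR adjusted p = 2.45e-05). All 17 S phase genes were lower on DOX, with a median log2 fold change of -0.68 and a summed level of 3597 to 3754 CPM with vehicle and 2006 to 2165 CPM with DOX. RRM2, a ribonucleotide reductase subunit, was the lowest, at 113 to 123 against 325 to 347 CPM (-1.51 ± 0.062). The part of this shift in the UHRF1 and DNMT1 values was not tested. The plot of S phase genes shows the pair within the spread of that list on MYC silencing and on GO-203.

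**Figure D4:**
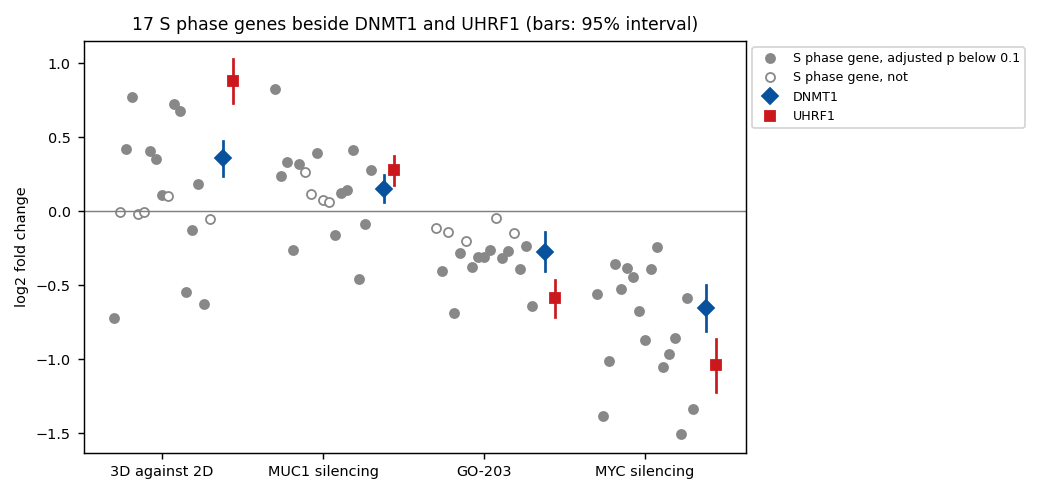
Log2 fold change (vertical axis) of the 17 S phase genes (grey points, filled where the edgeR adjusted p was below 0.1) beside DNMT1 (blue diamond) and UHRF1 (red square) with their 95% intervals (lines), in the 4 comparisons. All 17 are below 0 on MYC silencing and 12 are called below 0 on GO-203, while in 3D against 2D cells 8 are called higher and 4 lower and UHRF1, at 0.88, is above every one of them.

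TET3 was at 27.3, 28.5 and 26.2 CPM with vehicle and at 16.6, 15.7 and 16.8 CPM with DOX. It was 1.70-fold lower, without overlap, at a log2 fold change of -0.76 ± 0.086 (edgeR adjusted p = 3.29e-05). TET1 was at 1.80, 2.59 and 3.00 CPM with vehicle, its lowest group, and at 8.49, 6.56 and 6.38 CPM with DOX. It was 2.86-fold higher, at a log2 fold change of 1.52 ± 0.20 (edgeR adjusted p = 1.09e-04). TET2 was at 45.5, 44.9 and 47.9 CPM and at 59.1, 64.5 and 62.3 CPM, a log2 fold change of 0.41 ± 0.070 (edgeR adjusted p = 6.22e-04). On DOX, TET3 made up 21.9% ± 0.925 (SD, n = 3) of the TET total per kb, against 40.9% ± 2.04 with vehicle, and TET1 12.9% ± 2.14 against 4.95% ± 1.15.

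DNMT3A was at 8.33, 9.26 and 7.53 CPM with vehicle and at 9.96, 13.9 and 12.9 CPM with DOX. The lowest DOX library was only slightly above the highest vehicle library, and the log2 fold change was 0.53 ± 0.14 (edgeR adjusted p = 0.00942). DNMT3B was at 1.21, 1.18 and 1.19 CPM and at 0.867, 1.10 and 0.743 CPM. Its log2 fold change of -0.42 had a 95% interval from -0.95 to 0.11 (edgeR adjusted p = 0.164), and it was called without DOX replicate 2 (-0.60, edgeR adjusted p = 0.0800).

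Of the 8 DNMT and UHRF1 partners 6 were lower on MYC silencing and 1 higher. CDCA7 fell from between 65.8 and 67.7 CPM to between 26.3 and 30.1 (-1.28 ± 0.078), USP7, which deubiquitinates UHRF1 and DNMT1, had a log2 fold change of -0.73, LIG1, the ligase of the replication fork, -0.65, and DMAP1 rose (0.34); USP7 and LIG1 were named after their values were seen. Of the 14 genes of oxidised base removal and TET regulation 5 were higher and 5 lower, with IDH2 at 0.82, the reverse of its sign in 3D against 2D cells. Readers counted 3 higher and 2 lower of 7, with ZBTB4 at 123 to 145 against 44.5 to 48.1 CPM (1.52 ± 0.075) and MBD2 at -0.56. Methyl donor genes counted 3 higher and 4 lower of 9, with MTRR, methionine synthase reductase, at -0.73. The mesenchymal markers summed to between 7994 and 8278 CPM with vehicle and between 14297 and 16042 CPM with DOX, with 4 of the 5 higher and VIM lower (-0.18), and most of the sum was FN1, at means of 5175 and 12466 CPM. The endothelial markers to between 6.68 and 7.57 and between 10.0 and 11.3 CPM with DOX, with KDR (1.77) and PECAM1 (0.45), the 2 tested, both higher. The 3 receptor genes summed to between 18.7 and 22.7 CPM with vehicle and between 28.1 and 43.5 CPM with DOX, and both tested were higher, ERBB2 (0.82, edgeR adjusted p = 8.03e-04) and ESR1, with overlapping libraries (1.45, edgeR adjusted p = 0.0242). The part of these markers in the values above was not tested.

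The changes on MUC1 and on MYC silencing were then set against each other as an interaction over their 12 libraries. Of the 7 genes 6 differed, where 52.9% of 21585 genes tested did. For each of these 6 the separate changes had opposite signs. The MUC1 change minus the MYC change was -3.01 ± 0.25 on the log2 scale for TET1, -2.18 ± 0.20 for DNMT3A and -0.76 ± 0.084 for TET2, and 1.31 ± 0.097 for UHRF1, 1.17 ± 0.098 for TET3 and 0.79 ± 0.086 for DNMT1, with edgeR adjusted p from 4.05e-09 to 5.91e-07. DNMT3B had a difference of -0.35 with an interval from -1.24 to 0.55 (edgeR adjusted p = 0.544). MYC RNA rose on MUC1 silencing (log2 fold change 0.25) and MUC1 RNA rose on MYC silencing (1.25), so neither line lowered the RNA of the other's target. Protein was not measured here. The study reports by immunoblot that silencing MUC1-C in mammosphere cells lowered MYC, so the RNA values do not show that the MYC protein was unaffected. The lines also differed before DOX, and by the sample titles their passage differed.

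GO-203 and MUC1 silencing, both directed at MUC1, differed for 6 of the 7 genes, where 44.9% of 20829 genes did. The GO-203 change minus the silencing change was 1.76 ± 0.16 for DNMT3A, 1.22 ± 0.20 for TET1 and 0.48 ± 0.080 for TET2, and -0.87 ± 0.076 for UHRF1, -0.43 ± 0.078 for DNMT1 and -0.36 ± 0.086 for TET3, with edgeR adjusted p from 5.56e-10 to 0.00132. DNMT3B had a difference of 0.96 with an interval from -0.03 to 1.96 (edgeR adjusted p = 0.120), and the replicate block put it at 1.04 and called it (edgeR adjusted p = 0.0894). GO-203 acts on the protein, and MUC1 RNA was at 244 to 264 CPM with it against 182 to 222 CPM without. The agents, the lines and the controls differ between the 2 comparisons and cannot be told apart here.

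Among the 3 mammosphere groups without silencing or GO-203, the mean levels of DNMT1, UHRF1 and TET1 were further apart than GO-203 or either shRNA moved them. DNMT1 was at a mean of 218 ± 7.80 CPM (SD, n = 3) in 3D cells, 123 ± 4.07 in tet-MUC1shRNA vehicle cells and 299 ± 12.7 in tet-MYCshRNA vehicle cells, the highest and the lowest of all 7 groups. UHRF1 was at 164 ± 10.7, 74.0 ± 1.72 and 136 ± 8.94 CPM. The summed S phase level followed the same order as DNMT1, at means of 2972, 2021 and 3661 CPM. TET1 was at 7.25 ± 1.10, 8.16 ± 0.811 and 2.46 ± 0.613 CPM, with overlap between the first 2. TET2 was at 54.3 ± 2.13, 53.3 ± 0.718 and 46.1 ± 1.59 CPM, and DNMT3A at 9.30 ± 0.395, 10.1 ± 1.13 and 8.37 ± 0.866 CPM, with neighbouring groups of DNMT3A overlapping. The line, the vehicle and, for the tet-MYCshRNA cells, the passage in the sample titles differ between these groups, so the differences were not tested.

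In the order of group means, DNMT3A, DNMT3B, TET1 and TET2 each had 2D cells first with no overlap with the next group. Below that, the DNMT3A levels of tet-MYCshRNA DOX, tet-MUC1shRNA vehicle, GO-203, 3D and tet-MYCshRNA vehicle cells followed each other with overlapping libraries, and tet-MUC1shRNA DOX cells stood apart at the bottom at 3.18 ± 0.321 CPM. For TET3, tet-MUC1shRNA DOX cells came first at 44.5 ± 1.30 CPM and tet-MYCshRNA DOX cells last at 16.3 ± 0.591 CPM, and both stood apart from their neighbours. For UHRF1, 3D, tet-MYCshRNA vehicle and GO-203 cells were in that order without overlap, and tet-MYCshRNA DOX cells were last at 67.2 ± 5.68 CPM, overlapping tet-MUC1shRNA vehicle cells.

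Since the 2D libraries stood apart at the top for DNMT3A, DNMT3B, TET1 and TET2, the genes were set beside each other over the 18 mammosphere libraries, which are 6 groups of 3 and share TMM scaling. On log2 CPM, DNMT3A and TET2 had a Pearson r of 0.84 (Spearman rho 0.78), TET1 and TET2 0.77 (0.57) and DNMT1 and UHRF1 0.66 (0.66). TET3 went against DNMT3A (r = -0.75, rho -0.53), TET2 (-0.73, rho -0.54), DNMT3B (-0.53, rho -0.56) and DNMT1 (-0.47, rho -0.67). The libraries of a group are not independent conditions, so these are descriptions with no test.

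Over all 21 libraries, the genes with the highest Pearson r of log2 CPM among 13601 genes were AHSA1, THOC7 and COPS6 for DNMT1 (0.97, 0.97 and 0.96) and AKAP8, NOP16 and CDC6 for UHRF1 (0.94, 0.92 and 0.92). For DNMT3A they were PDE4B, DIRAS1 and SMARCD3 (0.98 each), for DNMT3B ARSB, GPX8 and TUG1 (0.97, 0.97 and 0.96), and for TET1 MAP1B, LPAR1 and TGFBR1 (0.97, 0.96 and 0.96). For TET2 they were GALNT16, SPARC and MAP1B (0.97 each), and for TET3 RNU5D-1, SLC9B2 and ERCC8 (0.95, 0.95 and 0.94). Without the 2D libraries AHSA1 kept the highest r with DNMT1 (0.98) and AKAP8 with UHRF1 (0.94), whereas for DNMT3B the 3 genes had r between 0.69 and 0.74 and for TET2 of 0.83 each, with at least 95 and 260 other genes above them.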

How the data were processed

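Total RNA from BT-549 cultures in triplicate was sequenced as stranded paired-end libraries. The authors aligned reads to GRCh38 with STAR (2.7.9a in the methods, 2.7.3a in the submitters' processing notes) and counted them with featureCounts from Subread, and the deposited values are raw counts per gene. Which annotation release and strand setting were used, and how multimapping reads were treated, is not given in the sources used here. Genes with no value in a block of libraries (4952 to 7587 genes a block) were read as 0. Positions are those of GENCODE release 44.

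The 7 genes and the gene lists were chosen with earlier results of these data known. Groups follow the sample labels. In R 4.3.3, genes were filtered with filterByExpr of edgeR 4.0.16, scaled by TMM factors and tested with its quasi-likelihood test on the 6 libraries of each comparison, with Benjamini-Hochberg adjustment and a call at an adjusted p below 0.1. A stricter call added an absolute log2 fold change above 1.5, after the study's figure legends; its text gives this limit as a fold change. Differences between comparisons were tested as interactions over 12 libraries. Each SE was taken from the log2 fold change and the quasi-likelihood F. The tests were first run on simulated data. CPM values were scaled over all 21 libraries, which hold 38026597 to 99751717 counts. No replicate pair agreed within sampling noise (chi-square per degree of freedom 4.13 to 45.6), so none was merged as a repeat deposit of 1 library.

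Genes named beside the 7 were MUC1 and MYC, the largest rise and fall of each list among called genes with a mean CPM of at least 1, and the 3 genes with the highest Pearson r for each gene. Some genes that this rule names are not reported here. Alternatives were DESeq2 1.42.0, RLE factors, total counts as scale, no filter or a minimum of 10 counts per library, an adjusted p below 0.05, a joint fit of the 21 libraries, a replicate block and each library left out. A comparison of similar genes over the mammosphere libraries was chosen after seeing the data. No protein sequences were used here.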

Additional observations from a re-analysis of the deposited data

Results flagged for a closer look

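The differences between comparisons that passed an interaction test in edgeR are listed here because effects under the same kind of contrast differed. For MUC1 silencing minus MYC silencing, over 12 libraries and with adjustment over 21585 genes, the log2 differences were -3.01 for TET1, -2.18 for DNMT3A, -0.76 for TET2, 0.79 for DNMT1, 1.17 for TET3 and 1.31 for UHRF1. For GO-203 minus MUC1 silencing, with adjustment over 20829 genes, they were 1.76 for DNMT3A, 1.22 for TET1, 0.48 for TET2, -0.36 for TET3, -0.43 for DNMT1 and -0.87 for UHRF1. DNMT3B passed neither test. Differences of this kind were common among all genes, at 52.9% and 44.9% of those tested.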

How the results depend on the processing

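The number of the 7 genes called stayed at 7 in 3D against 2D cells under all 14 alternatives, ranged from 6 to 7 of 7 on MUC1 silencing, from 2 to 3 on GO-203 and from 6 to 7 on MYC silencing, and stayed at 6 for MUC1 minus MYC silencing and between 6 and 7 for GO-203 minus MUC1 silencing, under 20 alternatives each. Of 630 recomputed log2 fold changes none changed sign, 611 stayed on the same side of the threshold, 13 became called and 6 lost their call, the last all for DNMT3B on MUC1 silencing. With the replicate numbers as a replicate block, 3 of 7 genes were called on GO-203 in place of 2, and 7 in place of 6 for GO-203 minus MUC1 silencing, and no other call changed. The numbers did not pair the cultures, since deviations of same-numbered libraries correlated between -0.13 and 0.04. DNMT3B for GO-203 minus MUC1 silencing was called in 6 of the alternatives, including all 21 libraries in one fit (edgeR adjusted p = 0.0438). The DNMT1 rise on MUC1 silencing ran from 0.13 to 0.32 on the log2 scale over the alternatives. Scaling by total counts moved the share of called genes that were higher from 49.1% to 61.2% for MUC1 minus MYC silencing and from 53.6% to 38.4% for GO-203 minus MUC1 silencing, and under it 9 group means of the 7 genes moved by more than their SD, 8 of them in the tet-MUC1shRNA line, whereas none did with RLE factors. The genes most similar to each of the 7 changed with the measure: in 15 of 21 recomputations fewer than 2 of the 3 remained. Depth limits DNMT3B the most, at 10 to 42 counts in the tet-MUC1shRNA DOX libraries.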

Other observations

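Germline genes whose promoters are silenced by DNA methylation in somatic cells summed to at most 6.85 CPM in a library. DAZL, a germ cell RNA-binding protein, moved most of that list's tested members on GO-203 and on MYC silencing, but not on MUC1 silencing, where SOHLH2 did. In 3D against 2D cells DAZL passed the low-count filter through the 3D group alone, so its rank there carries no weight. Of 21 such genes 18 were in the table, and their summed level was 1.16 to 1.62 CPM in 2D libraries and 3.53 to 3.86 CPM in 3D libraries, and highest in tet-MUC1shRNA DOX libraries at 6.07 to 6.85 CPM. From 0 to 3 of them were above a mean of 1 CPM in a group, and 3 or 4 could be tested in a comparison. DAZL had 0 counts in each 2D library and 81, 78 and 66 counts in the 3D libraries, where its mean was 1.41 ± 0.344 CPM (SD, n = 3), at least 24.9-fold higher than a floor of 3 counts per 2D library. SOHLH2, a germ cell transcription factor, was the other of 4 tested genes that rose in 3D cells (log2 fold change 1.33, edgeR adjusted p = 0.0121).

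DAZL rose on MUC1 silencing, from between 2.06 and 2.45 CPM to between 3.75 and 4.22 (log2 fold change 0.84 ± 0.16, edgeR adjusted p = 1.04e-04), and on MYC silencing, from between 0.827 and 1.37 CPM to between 2.56 and 2.7 (1.22 ± 0.22, edgeR adjusted p = 7.97e-04). It fell on GO-203, from between 1.02 and 1.68 CPM to between 0.355 and 0.442 (-1.79 ± 0.32, edgeR adjusted p = 2.92e-04). SOHLH2 fell on MUC1 silencing (-1.01 ± 0.28, edgeR adjusted p = 0.00395) while DAZL rose. SYCP3, a meiotic chromosome protein, fell on MYC silencing (-0.72, edgeR adjusted p = 0.0686). The other genes of the list, among them MAGEA3 at a mean of 0.576 CPM in 2D and 0.805 CPM in 3D cells, either could not be tested or did not pass. Methylation of the promoters of these genes was not measured here.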
